A study of Homo sapiens with 12 samples.

Results

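The genes described here are 9 transcription factor genes of the myeloid lineage, SPI1, CEBPA, CEBPB, CEBPD, CEBPE, GFI1, MYB, RUNX1 and KLF4. They were taken from the deposited gene tables by symbol, as 9 of 62914 entries, and all 9 passed the filter on low counts. RNA was sequenced from THP-1, an established cell line of human monocytic leukemia that carries the MLL-AF9 fusion of KMT2A and MLLT3. The 12 libraries form 4 groups of 3, an untreated control and 3 treatments of 8 h: 3'-3'-cGAMP at 1 μg/mL, and chlorquinaldol at 20 μM or at 50 μM. The bacterial cyclic dinucleotide 3'-3'-cGAMP binds the innate immune adaptor STING and served as the positive control for antiviral signaling. Chlorquinaldol is a chlorinated hydroxyquinoline antiseptic. No vehicle or harvest time is given for the untreated cells, so an effect of solvent or time cannot be told apart from that of a treatment. The labels do not say whether replicates were separate cultures, and p-values then reflect the scatter of these libraries alone.

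Blood cell fate is set by a small network of DNA-binding proteins that act by dose and antagonism. PU.1, encoded by SPI1, and the C/EBP proteins open and activate the genes of monocytes and granulocytes, and RUNX1 acts upstream of them in stem and progenitor cells. MYB keeps progenitors dividing and undifferentiated and is required by MLL-AF9 leukemia cells, GFI1 is a repressor that favors granulocytes over monocytes, and KLF4 acts downstream of PU.1 to drive monocyte differentiation.

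Levels are CPM, the read count scaled to library size by the TMM method, with n = 3 a group, and log2 changes are given ± SE. Adjusted p-values are those of edgeR's quasi-likelihood test after Benjamini-Hochberg correction over 16628 genes, called below 0.05. Gene-assigned counts ran from 17620929 to 19222607 a library, and pairs of libraries correlated at 0.9856 or more within groups and 0.9764 or less between groups. All 10 monocyte markers were at 1 FPKM or more in untreated cells. Their summed FPKM spanned 2147 to 2281 in the untreated libraries, 2669 to 2860 in the cGAMP libraries, 2689 to 3075 for the 20 μM dose and 1653 to 1882 for the 50 μM dose. FCER1G took the largest part of the sum and averaged 1040, 1200, 1830 and 677 FPKM in that order. CD14, CSF1R, ITGAM and TYROBP averaged higher at 50 μM than in untreated cells, and LYZ, MNDA, FCGR1A and CD33 averaged lower. LYZ went from 400 to 162 FPKM and TYROBP from 270 to 419, and CD68 averaged 140 and 141. Of the other marker lists, 2 of 10 T and NK cell, 2 of 8 B cell, 0 of 10 erythroid and megakaryocyte, 1 of 8 granulocyte and 1 of 10 epithelial and fibroblast genes reached 1 FPKM in untreated cells. MS4A1, IGHM, HBB, PF4 and KRT19 were at 0 in all 12 libraries. In bulk RNA, fewer cells of a kind and less RNA per cell cannot be told apart.

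The genes divided by direction. MYB, GFI1 and CEBPA fell at both chlorquinaldol doses and were lower at 50 μM than at 20 μM, KLF4 rose at both doses and was higher at 50 μM, CEBPB rose at 50 μM, and CEBPD fell at both doses. With cGAMP 5 of 9 were called, 1 higher and 4 lower, where 23.3% of all tested genes were called (11.6% higher, 11.8% lower). Without cGAMP replicate 2, 858 genes were called lower in that comparison, against 1954 with it. Leaving out a library of another group also lowered this count, to 1294 without 50 μM replicate 2 and 1312 without 20 μM replicate 2. At 20 μM chlorquinaldol 6 of 9 were called, 1 higher and 5 lower, against 55.1% of all genes (27.1% higher, 28% lower). At 50 μM 8 of 9 were called, 3 higher and 5 lower, against 66.9% of all genes (32.2% higher, 34.7% lower), so being called at these doses does not set the 9 genes apart. The libraries of the 2 groups did not overlap for 5, 7 and 9 of the 9 genes (44%, 61.9% and 70.6% of all genes). Median log2 changes over the 9 genes were −0.08, −0.25 and −0.48, beside −0.05, −0.00 and −0.03 over all genes. These 3 comparisons share the untreated libraries.

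**Figure D1:**
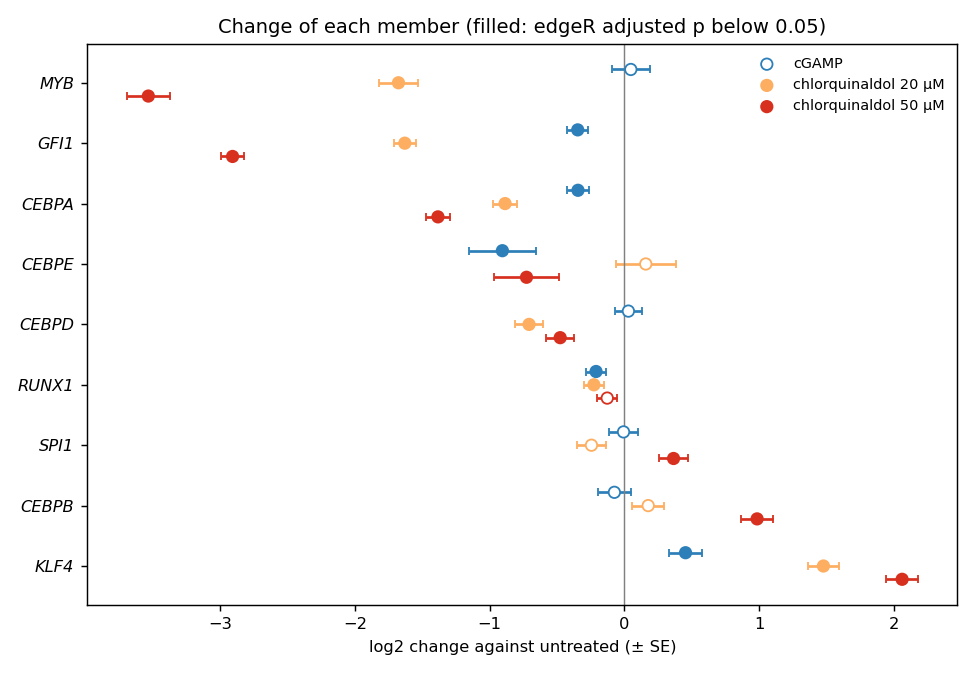
Log2 change against untreated cells (x axis, ± SE, 3 libraries against 3) of each of the 9 genes (y axis) with cGAMP (blue), 20 μM (orange) and 50 μM (red) chlorquinaldol; filled points have an edgeR adjusted p below 0.05. MYB lies farthest left at −3.53 for 50 μM and near 0 with cGAMP, and KLF4 lies farthest right at 2.06 for 50 μM.

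MYB (ENSG00000118513, chromosome 6, 135181315 to 135219173, plus strand) showed the largest change of the 9. It read 437, 443 and 472 CPM in the untreated libraries and 504, 452.5 and 441 CPM with cGAMP. At 20 μM chlorquinaldol it read 99.9, 137 and 186 CPM, and at 50 μM 39.2, 37.2 and 40.4 CPM. Every library of the higher dose was below every library of the lower dose, and both doses lay below all untreated libraries, whose range overlapped that of cGAMP. The fall was 3.2-fold at 20 μM (log2 −1.68 ± 0.15, edgeR adjusted p = 6.39e-08) and 11.6-fold at 50 μM (log2 −3.53 ± 0.16, edgeR adjusted p = 6.8e-12). Between the doses MYB differed by log2 −1.86 ± 0.15 (edgeR adjusted p = 9.96e-08). The libraries at 20 μM were the most spread, and the change there was log2 −1.43 without replicate 1 and −1.88 without replicate 3. With cGAMP the change was 0.05 ± 0.14 (edgeR adjusted p = 0.851).

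GFI1 (ENSG00000162676, chromosome 1, 92474762 to 92486876, minus strand) was lower in all 3 treatments. Its libraries read 263, 236 and 235 CPM in untreated cells and 196, 199.5 and 181 CPM with cGAMP. They read 71.8, 78.4 and 86.8 CPM at 20 μM chlorquinaldol and 32.5, 32.1 and 33.1 CPM at 50 μM. No group overlapped another, and the order was untreated, cGAMP, 20 μM, 50 μM. With cGAMP GFI1 fell 1.27-fold (log2 −0.35 ± 0.08, edgeR adjusted p = 0.00448), a call that held in all 22 alternatives (adjusted p from 0.00075 to 0.0338). It fell 3.1-fold at 20 μM (log2 −1.63 ± 0.08, edgeR adjusted p = 1.39e-10) and 7.51-fold at 50 μM (log2 −2.91 ± 0.09, edgeR adjusted p = 2.96e-13). The doses differed by log2 −1.28 ± 0.09 (edgeR adjusted p = 1.4e-08).

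KLF4 (ENSG00000136826, chromosome 9, 107484852 to 107490482, minus strand) moved the other way. It read 25.9, 22.9 and 30.3 CPM in untreated libraries and 35.1, 33.5 and 39.7 CPM with cGAMP. At 20 μM chlorquinaldol the libraries read 81.3, 77 and 62 CPM, and at 50 μM 99.7, 119 and 111 CPM. All 4 groups were apart. KLF4 rose 2.78-fold at 20 μM (log2 1.48 ± 0.12, edgeR adjusted p = 1.94e-08) and 4.17-fold at 50 μM (log2 2.06 ± 0.12, edgeR adjusted p = 9.55e-11), with a difference between doses of 0.58 ± 0.11 (edgeR adjusted p = 0.000476). The latter missed the threshold in limma on unfiltered FPKM (adjusted p = 0.0603, the highest of its 22 alternatives, the lowest being 2.7e-09). With cGAMP it rose 1.37-fold (log2 0.45 ± 0.12, edgeR adjusted p = 0.0103). That smaller call ended without untreated replicate 2 (adjusted p = 0.0674), without cGAMP replicate 3 (0.0551) and in limma on FPKM (0.0722 to 0.168), with alternatives from 1.93e-05 to 0.168.

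**Figure D2:**
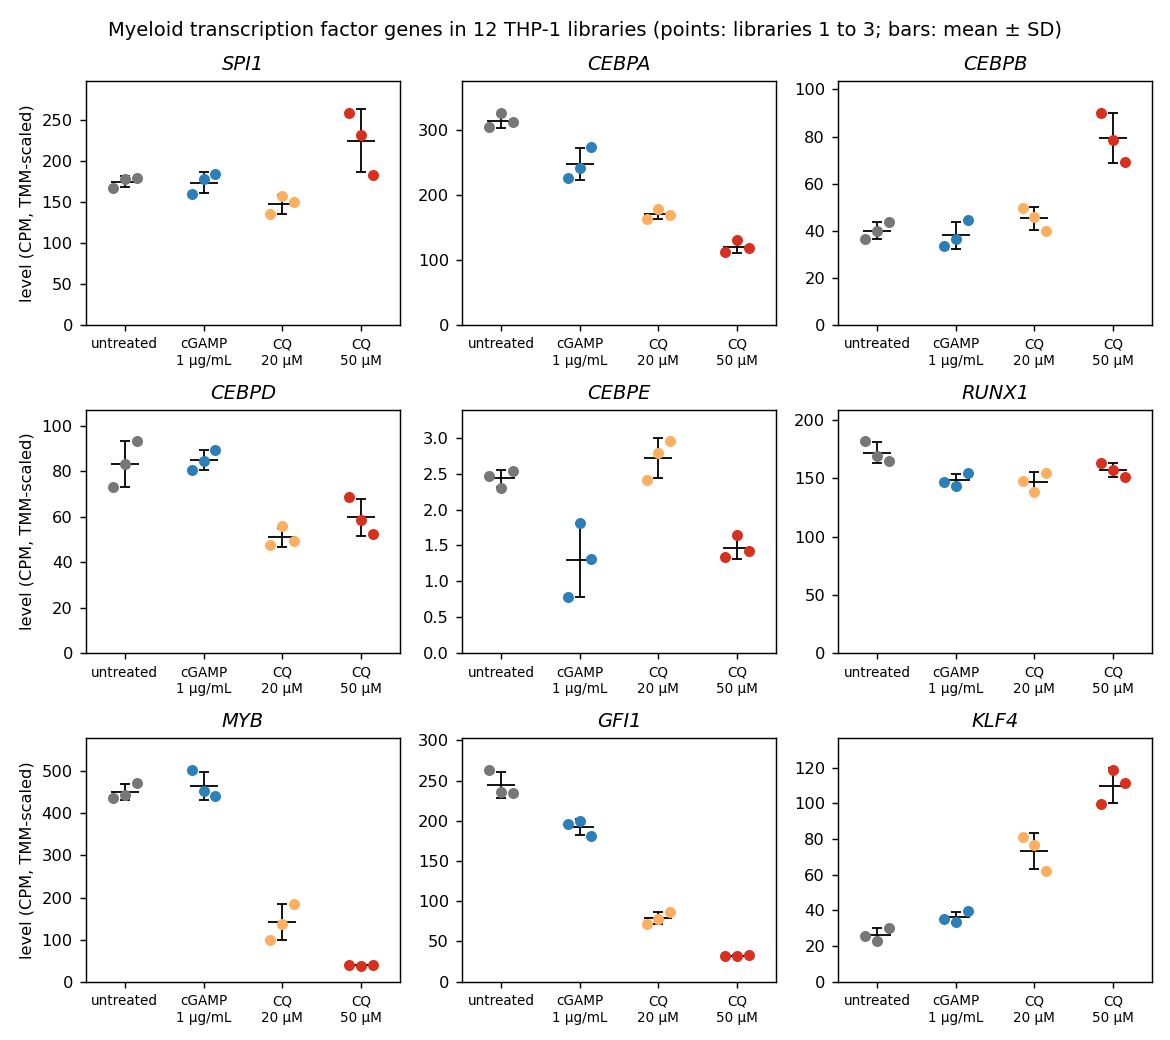
Level of each of the 9 genes in CPM (y axis, linear, from 0, a separate scale for each panel) in the 4 groups (x axis; CQ is chlorquinaldol); each point is a library and the bars give the mean ± SD of 3. MYB and GFI1 step down and KLF4 steps up with dose. RUNX1 stays within 138 to 182 CPM, and SPI1 spans 134 to 258 CPM with its highest mean at 50 μM.

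The promoters of the 3 genes that changed most are printed because MYB and GFI1 fell together while KLF4 rose, so that their upstream sequence can be read side by side. Each is the 250 bases before the annotated start, from RefSeq on GRCh38.p14, on the strand of the gene. Capitals mark the matches to 10 short motifs searched on both strands. The windows are chr6:135181058-135181307 (plus), chr1:92486926-92487175 (minus; the first of 3 listed GFI1 starts) and chr9:107489770-107490019 (minus).
MYB: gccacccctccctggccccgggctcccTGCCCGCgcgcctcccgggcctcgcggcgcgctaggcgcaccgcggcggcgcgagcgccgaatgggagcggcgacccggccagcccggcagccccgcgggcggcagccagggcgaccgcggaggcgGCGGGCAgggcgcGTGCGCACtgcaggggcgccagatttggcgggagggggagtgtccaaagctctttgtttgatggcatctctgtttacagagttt
GFI1: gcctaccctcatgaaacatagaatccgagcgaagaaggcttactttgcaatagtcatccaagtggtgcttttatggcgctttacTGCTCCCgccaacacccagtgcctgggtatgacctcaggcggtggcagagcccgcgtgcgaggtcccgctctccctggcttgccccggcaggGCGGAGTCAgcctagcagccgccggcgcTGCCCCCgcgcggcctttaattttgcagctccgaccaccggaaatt
KLF4: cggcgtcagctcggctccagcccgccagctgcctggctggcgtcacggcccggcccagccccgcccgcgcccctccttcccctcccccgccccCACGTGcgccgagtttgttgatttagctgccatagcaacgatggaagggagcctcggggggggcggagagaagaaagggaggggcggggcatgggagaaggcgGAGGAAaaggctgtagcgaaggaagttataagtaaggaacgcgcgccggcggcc

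The first motif was TGCNCNC, a loose form of the core of the metal response element bound by MTF1. N stands for any base, so a match to it need not be that core. Next came ACGTG (hypoxia response element core), TGACNNNGC (antioxidant response element core), TTGCNNAA (C/EBP) and GAGGAA (PU.1). The rest were TGTGGT (RUNX), AACNGTT (MYB), TGACGTCA (cAMP response element), CCAAT and TATAAA. Among 34943 RefSeq promoter windows of the same length the motifs occurred in 49.1%, 18.5%, 10.9%, 9.06%, 23.6%, 11%, 2.95%, 1.63%, 32% and 10.8%, in that order. The MYB window holds 4 matches, all to TGCNCNC, at −223, −97, −84 and −83 from the start, the last pair overlapping on opposite strands. The printed GFI1 window holds TGCNCNC at −166 and −46 and TGACNNNGC at −74. The windows of the other GFI1 starts are not printed. Start 2 has CCAAT at −247, TTGCNNAA at −142, TGCNCNC at −104 and TGTGGT at −47. Start 3 has TGCNCNC at −42 and GAGGAA at −30. The KLF4 window holds CACGTG at −157, which reads as ACGTG on either strand, and GAGGAA at −54. GC content was 75.6% for MYB, 61.2% for GFI1 and 69.2% for KLF4, against a median of 58% over all windows. A match is a description of letters and was not tested for binding. RefSeq windows were used for 7 of the 9 genes, and SPI1 was not among them.

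CEBPA (ENSG00000245848, chromosome 19, 33299934 to 33302564, minus strand) encodes the C/EBP protein required for the step from common to granulocyte-monocyte progenitors. It read 306, 327 and 312.5 CPM in untreated libraries and 227, 242 and 275 CPM with cGAMP. It read 163, 178.5 and 170.2 CPM at 20 μM chlorquinaldol and 112, 132 and 118 CPM at 50 μM. The 4 groups did not overlap and fell in the same order as those of GFI1. CEBPA was 1.85-fold lower at 20 μM (log2 −0.89 ± 0.09, edgeR adjusted p = 1.84e-07) and 2.61-fold lower at 50 μM (log2 −1.38 ± 0.09, edgeR adjusted p = 2.97e-10), and the doses differed by −0.50 ± 0.09 (edgeR adjusted p = 0.000213). With cGAMP it fell 1.27-fold (log2 −0.35 ± 0.09, edgeR adjusted p = 0.00676). The cGAMP call ended without cGAMP replicate 2 (adjusted p = 0.0702; alternatives from 0.000929 to 0.0702).

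CEBPA lies head to head with the divergent transcript CEBPA-DT, 292 bases away on the opposite strand. CEBPA-DT was picked after its values were seen. It fell from 13.9, 15.5 and 15.6 CPM in untreated cells to 10.9, 10.5 and 10.8 CPM with cGAMP (log2 −0.48 ± 0.13, edgeR adjusted p = 0.00948). It read 6.88, 8.37 and 10.2 CPM at 20 μM (log2 −0.82 ± 0.13, edgeR adjusted p = 3.4e-05) and 3.89, 4.82 and 4.27 CPM at 50 μM (log2 −1.79 ± 0.14, edgeR adjusted p = 4.43e-09). CEBPA and its divergent transcript were thus called in the same direction in each comparison. An antisense gene, ENSG00000267580, overlaps CEBPA over 1235 bases and averaged 23.2 CPM in untreated cells and 13.1 CPM at 50 μM. Read strand is not stated, so reads of CEBPA and this gene cannot be told apart.

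CEBPB (ENSG00000172216, chromosome 20, 50190734 to 50192689, plus strand), the inducible C/EBP gene of inflammation and emergency granulopoiesis, was called at the higher dose. Its libraries read 36.3, 40 and 43.8 CPM in untreated cells and 33.3, 36.3 and 44.4 CPM with cGAMP. They read 49.7, 45.9 and 40.1 CPM at 20 μM and 90.1, 78.7 and 69 CPM at 50 μM. The libraries at 50 μM lay above all 9 others, which overlapped each other. The rise at 50 μM was 1.98-fold (log2 0.98 ± 0.12, edgeR adjusted p = 1.01e-06), and 50 μM exceeded 20 μM by log2 0.81 ± 0.12 (edgeR adjusted p = 4.14e-05). The changes with cGAMP (−0.08 ± 0.12, edgeR adjusted p = 0.7) and at 20 μM (0.18 ± 0.12, edgeR adjusted p = 0.228) did not pass.

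CEBPB-AS1 overlaps CEBPB over 765 bases on the opposite strand and was picked after its values were seen. It held 12.1, 10.1 and 13.1 estimated counts in untreated libraries and 5.01, 6.04 and 8.05 with cGAMP. At 20 μM it held 84.5, 91.6 and 77.5 counts, and at 50 μM 164, 131 and 62.6. The rises were log2 2.89 ± 0.35 (edgeR adjusted p = 2.23e-06) and 3.48 ± 0.34 (edgeR adjusted p = 7.49e-08), and were 1.205 and 1.459 in limma on log2(FPKM + 1), a scale that understates changes of low genes. In CPM the antisense gene averaged 0.596 in untreated cells, 4.48 at 20 μM and 6.71 at 50 μM, beside 40, 45.2 and 79.2 for CEBPB. Without strand, reads of the overlap cannot be told apart.

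CEBPD (ENSG00000221869, chromosome 8, 47736909 to 47739086, minus strand) encodes an acute-phase C/EBP protein. It read 73.3, 83.1 and 93.2 CPM in untreated libraries and 80.7, 84.4 and 89.5 CPM with cGAMP. It read 47.6, 55.8 and 49.6 CPM at 20 μM and 68.5, 58.5 and 52.5 CPM at 50 μM. Both doses lay below all untreated libraries, and the doses overlapped. CEBPD fell 1.63-fold at 20 μM (log2 −0.71 ± 0.10, edgeR adjusted p = 2.01e-05) and 1.39-fold at 50 μM (log2 −0.48 ± 0.10, edgeR adjusted p = 0.000591). Set against 20 μM, 50 μM gave 0.23 ± 0.10 (edgeR adjusted p = 0.0931). That difference passed without 20 μM replicate 2 (0.0458) or 50 μM replicate 3 (0.0199), with alternatives from 0.0199 to 0.642. With cGAMP CEBPD gave 0.03 ± 0.10 (edgeR adjusted p = 0.873).

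CEBPE (ENSG00000092067, chromosome 14, 23117304 to 23119616, minus strand) drives terminal granulocyte maturation and was the least expressed of the 9, with 15 to 59 counts a library. It read 2.46, 2.31 and 2.54 CPM in untreated libraries and 0.776, 1.82 and 1.31 CPM with cGAMP. It read 2.41, 2.79 and 2.95 CPM at 20 μM and 1.33, 1.64 and 1.42 CPM at 50 μM. Libraries with cGAMP and at 50 μM lay below all untreated ones, and those at 20 μM overlapped them. CEBPE changed by log2 −0.91 ± 0.25 with cGAMP (edgeR adjusted p = 0.0126) and −0.73 ± 0.24 at 50 μM (edgeR adjusted p = 0.0139), and gave 0.16 ± 0.22 at 20 μM (edgeR adjusted p = 0.573). From 20 μM to 50 μM it changed by −0.89 ± 0.24 (edgeR adjusted p = 0.00769). The cGAMP call ended without cGAMP replicate 1 (0.0692) and in limma on unfiltered FPKM (log2 −0.597, adjusted p = 0.0571; alternatives from 0.00484 to 0.0692), and the 50 μM call ended without 50 μM replicate 1 (0.068) or 3 (0.0563; alternatives from 0.00498 to 0.068).

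Because C/EBP proteins bind the same sites as pairs, the share of each gene in the summed FPKM of CEBPA, CEBPB, CEBPD, CEBPE and CEBPG was also compared. FPKM is the level per length of transcript and was not scaled by TMM. The TMM factors were 1.019 to 1.0564 in untreated libraries, 1.0001 to 1.0606 at 20 μM and 0.9048 to 0.9638 at 50 μM. Sums of FPKM in different groups are therefore not on the scale of CPM, whereas shares within a library do not depend on it. The sum fell from 274 ± 10.2 FPKM (SD) in untreated cells to 232 ± 12.6 with cGAMP, 175 ± 2.92 at 20 μM and 174.5 ± 7.62 at 50 μM. CEBPA made up 52%, 51.2% and 47.8% of it in the untreated libraries and 24.6%, 28.9% and 28.8% at 50 μM. CEBPB made up 9.11%, 9.23% and 9.91% in the untreated libraries, 18.5%, 16.1% and 15.2% at 20 μM and 29.1%, 25.5% and 24.8% at 50 μM. The ranges of CEBPB shares at 20 μM and 50 μM overlapped neither the untreated range nor each other. Both gave an exact two-sided permutation p of 0.1 against untreated cells, the smallest that 3 against 3 can give, and cGAMP gave 0.3 (10.1% ± 0.783). The CEBPD share was 30.8% ± 2.18 in untreated cells and 31.5% ± 2.94 at 50 μM. CEBPE made up 0.981% ± 0.106 and 0.842% ± 0.051, and CEBPG, which lacks an activation domain, 8.42% ± 0.381 and 13.8% ± 2.78. At 50 μM the mean shares of CEBPA and CEBPB were 27.4% and 26.5%, where they had been 50.3% and 9.41%.

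**Figure D3:**
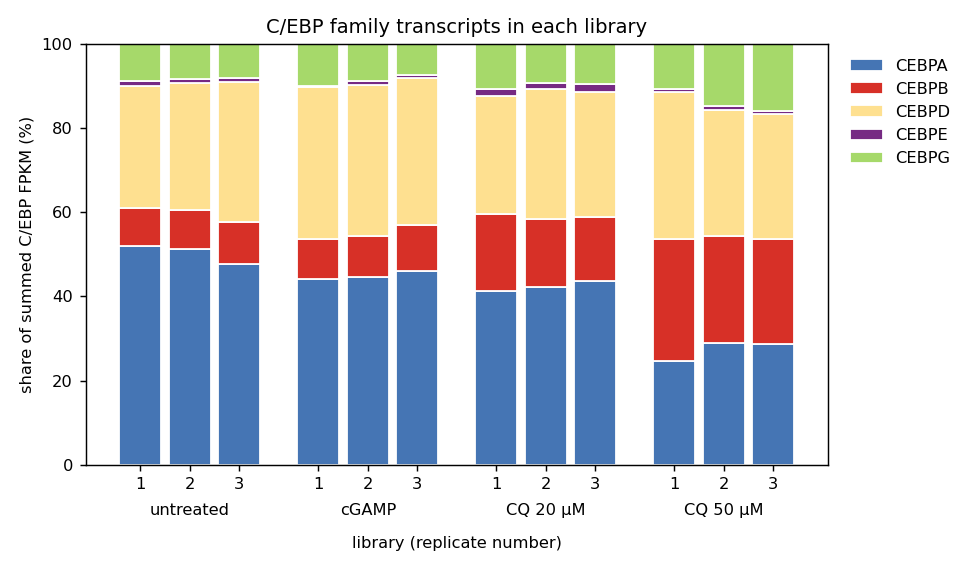
Share of each C/EBP gene in the summed C/EBP FPKM (y axis, %) in each of the 12 libraries (x axis, replicates 1 to 3 of the 4 groups; CQ is chlorquinaldol). The CEBPA segment shrinks from 47.8% to 52% in untreated libraries to 24.6% to 28.9% at 50 μM, and the CEBPB segment grows from 9.11% to 9.91% to 24.8% to 29.1%.

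SPI1 (ENSG00000066336, chromosome 11, 47354860 to 47378576, minus strand) was called against untreated cells at 50 μM. It read 166, 177 and 179 CPM in untreated libraries and 160, 177 and 183 CPM with cGAMP. It read 134.5, 157 and 149.7 CPM at 20 μM and 258, 232 and 183 CPM at 50 μM. The libraries at 20 μM were below all untreated ones and those at 50 μM above them, with replicate 3 at 50 μM close to the untreated range. SPI1 was 1.29-fold higher at 50 μM (log2 0.36 ± 0.11, edgeR adjusted p = 0.00565) and gave −0.25 ± 0.11 at 20 μM (edgeR adjusted p = 0.059). The doses differed by 0.61 ± 0.11 (edgeR adjusted p = 0.000229), a call that held in all 22 alternatives. The rise at 50 μM was log2 0.56 without 50 μM replicate 3. This rise missed the threshold in limma on FPKM (log2 0.203, adjusted p from 0.0883 to 0.173, with alternatives from 2.07e-05 to 0.173). FPKM was not scaled between libraries, and the all-gene medians at 50 μM were −0.143 and −0.173 in the filtered limma fits. The 20 μM change passed in the filtered limma fits (0.0483 and 0.0488). It also passed with only these groups fitted (0.0253) and without 50 μM replicate 3 (0.0465, with alternatives from 0.0253 to 0.353). With cGAMP the change was −0.01 ± 0.11 (edgeR adjusted p = 0.974).

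RUNX1 (ENSG00000159216, chromosome 21, 34787801 to 36004667, minus strand) changed little in level. It read 182, 169.6 and 165 CPM in untreated libraries and 147, 144 and 155 CPM with cGAMP. It read 148, 138 and 154.5 CPM at 20 μM and 164, 157 and 151 CPM at 50 μM. The treated libraries all lay below the untreated ones, and the 3 treated groups overlapped. RUNX1 was called lower with cGAMP (log2 −0.21 ± 0.07, edgeR adjusted p = 0.0468) and at 20 μM (−0.23 ± 0.07, edgeR adjusted p = 0.0147), and not at 50 μM (−0.13 ± 0.07, edgeR adjusted p = 0.136). The cGAMP call was kept in 3 of 22 alternatives (adjusted p from 0.0174 to 0.37) and ended without any 1 of the 12 libraries, with log2 −0.134 without cGAMP replicate 2 and −0.124 in limma on log2(FPKM + 1). The 20 μM call was kept in 13 of 22 (0.0114 to 0.467) and ended without untreated replicate 1, cGAMP replicate 2, 20 μM replicates 1 or 2, or 50 μM replicate 2, with log2 −0.143 without 20 μM replicate 2 and −0.084 in limma on log2(FPKM + 1). At 50 μM the direction turned in limma on FPKM, with log2 0.22 (adjusted p from 0.0204 to 0.0288; alternatives from 0.0204 to 0.747).

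RUNX1 had opposite signs on the 2 scales, so the length by which counts were divided was also described. This length is computed from the 2 scales, so it differs wherever they differ and tests no cause. CPM before TMM scaling divided by FPKM gives the length in kb by which the authors' estimate divided the reads of a gene in a library. It is shorter than the annotated transcripts where these are single, such as a mean of 1.014 kb in untreated libraries for CEBPD, annotated at 2.18 kb, so its changes and not its size were compared. For RUNX1 it was 4.73, 4.62 and 4.42 kb in untreated libraries, 4.43, 4.03 and 4.03 with cGAMP, and 3.92, 4.11 and 4.4 at 20 μM chlorquinaldol. At 50 μM it was 3.46, 3.27 and 3.09 kb, below all 9 other libraries. The mean at 50 μM was 71.3% of the untreated mean, and 0.4% of 5358 genes with at least 10 FPKM had a lower percentage, where the median gene stood at 100%. GENCODE 29 lists 17 RUNX1 transcripts of 0.25 to 7.27 kb, and which of them changed was not tested. The exact two-sided permutation p was 0.1, the smallest possible here, and the measure was added after the data were seen. GFI1 gave 2.14, 2.13 and 2.12 kb in untreated libraries and 1.84, 1.78 and 1.98 kb at 50 μM, 87.6% of the untreated mean. CEBPA, CEBPB and CEBPD, with 1 annotated transcript each, stayed at 99.9% to 100.3%. CEBPE, also with 1 transcript but with few reads, gave 93.3% with cGAMP (0.92, 0.96 and 0.75 kb), 102.6% at 20 μM and 99.5% at 50 μM.

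**Figure D4:**
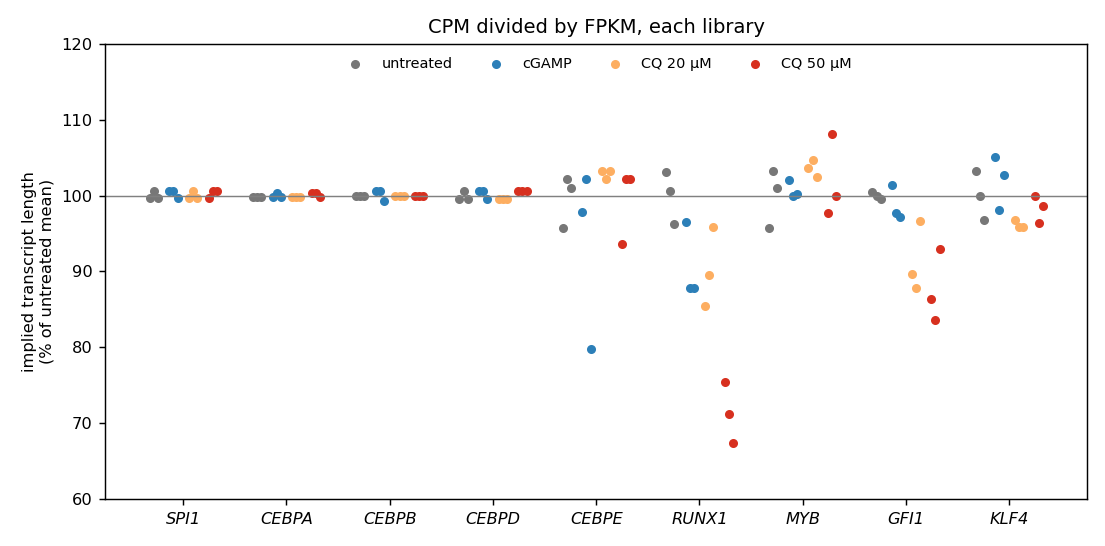
CPM divided by FPKM, as a percentage of the untreated mean (y axis, from 60% to 120%, not from 0), for each library (points, coloured by group) of each of the 9 genes (x axis). The 3 RUNX1 libraries at 50 μM chlorquinaldol (CQ) average 71.3%, whereas CEBPA, CEBPB and CEBPD stay at 100%.

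The order of the 9 genes by level per length was described in each group. In untreated cells it was MYB (174 FPKM), SPI1 (165), CEBPA (138), GFI1 (119), CEBPD (84.6), RUNX1 (38.7), CEBPB (25.8), KLF4 (12.5) and CEBPE (2.68). MYB and SPI1 overlapped and no other neighbours did. With cGAMP the order was the same, with MYB at 171 and SPI1 at 157 FPKM, and GFI1 (90.8) overlapped CEBPD (82.9). At 20 μM chlorquinaldol SPI1 led with 138 FPKM, followed by CEBPA (74.2), MYB (52.4), CEBPD (51.6), GFI1 (41.7), RUNX1 (36.5), KLF4 (35.9), CEBPB (29) and CEBPE (2.9). There MYB overlapped CEBPA and CEBPD, and GFI1 to CEBPB formed a run of overlapping neighbours. At 50 μM SPI1 (191 FPKM) stood apart from CEBPD (55), KLF4 (48.3), CEBPA (47.9), CEBPB (46.2) and RUNX1 (45.1), whose neighbours all overlapped. GFI1 (16.4), MYB (13.4) and CEBPE (1.47) followed, each apart from the next. The mean MYB level per length thus went from the highest of the 9 in untreated cells to the eighth at 50 μM, and that of KLF4 from the eighth to the third.

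Chlorquinaldol was also set against cGAMP, which was given for the same 8 h. At 20 μM 6 of 9 genes were called against cGAMP, 2 higher and 4 lower, beside 55.6% of all genes (27.6% higher, 28% lower). At 50 μM 7 of 9 were called, 3 higher and 4 lower, beside 66.7% of all genes (32% higher, 34.7% lower). MYB was 12-fold lower at 50 μM than with cGAMP (log2 −3.58 ± 0.16, edgeR adjusted p = 5.45e-12), GFI1 5.9-fold lower and CEBPA 2.06-fold lower. KLF4 was 3.05-fold higher (log2 1.61 ± 0.12, edgeR adjusted p = 1.51e-09) and CEBPB 2.08-fold higher. The 2 RUNX1 comparisons gave −0.02 ± 0.07 at 20 μM and 0.08 ± 0.07 at 50 μM (edgeR adjusted p = 0.874 and 0.329). At 50 μM 19 of 22 alternatives kept RUNX1 not called, with log2 from 0.071 to 0.347 and adjusted p from 0.0014 to 0.504. RUNX1 between the doses gave 0.10 ± 0.07 (edgeR adjusted p = 0.313), with alternatives from 0.00738 to 0.62. CEBPE was higher at 20 μM than with cGAMP by 1.06 ± 0.24 (edgeR adjusted p = 0.00126). Between the doses 7 of 9 genes were called, 3 higher and 4 lower at 50 μM, against 38.1% of all genes (19.1% higher, 19% lower).

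Lists of related genes give the setting of these changes. Of 35 other lineage transcription factor genes 31 were tested. With cGAMP 9 rose and 4 fell, at 20 μM 13 rose and 7 fell, and at 50 μM 17 rose and 8 fell (median log2 0.14, 0.25 and 0.68). Beside them stand the all-gene shares of 11.6% higher and 11.8% lower with cGAMP, 27.1% and 28% at 20 μM and 32.2% and 34.7% at 50 μM, with all-gene medians of −0.05, −0.00 and −0.03. MAF, a bZIP factor gene, rose by 1.69 ± 0.12 and 2.42 ± 0.12 at the 2 doses, and the repressor gene BCL6 by 1.36 ± 0.15 and 3.19 ± 0.15. MEF2C, which supports monocyte fate and MLL-AF9 leukemia, rose by 1.03 ± 0.07 and 0.93 ± 0.07. ETS1 fell (log2 −0.52 ± 0.10) with cGAMP and rose by 0.68 ± 0.09 at 50 μM. BATF3, a dendritic cell factor gene, rose by 1.17 ± 0.25 with cGAMP and 1.45 ± 0.25 at 50 μM. It had few reads, with 24, 30 and 21 counts in untreated libraries and 56, 53 and 79 at 50 μM. The BATF3 call with cGAMP ended in limma on unfiltered FPKM (log2 0.761, adjusted p = 0.057).

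All 30 genes of a list of PU.1 and C/EBP targets were tested. With cGAMP 11 rose and 2 fell, at 20 μM chlorquinaldol 10 rose and 16 fell, and at 50 μM 11 rose and 15 fell (median log2 0.10, −0.27 and −0.26), beside 23.3%, 55.1% and 66.9% of all genes called in either direction and the all-gene medians above. CTSG, the cathepsin G gene, fell with the drug from 340.0 to 50.2 and 36.2 CPM (log2 −2.76 ± 0.10 and −3.23 ± 0.11), and PRTN3, the proteinase 3 gene, from 261 to 67.6 and 54.1 CPM (−1.95 ± 0.08 and −2.27 ± 0.09). The calgranulin gene S100A9 fell (log2 −2.49 ± 0.13 and −3.43 ± 0.14), and the kinase gene FES (−1.51 ± 0.08 and −2.59 ± 0.09). MNDA, a nuclear antigen of myeloid cells, rose by 1.71 ± 0.11 with cGAMP and fell (log2 −1.999 ± 0.12 and −2.32 ± 0.12) at 20 and 50 μM. FCGR1A, the high-affinity IgG receptor gene, rose by 0.81 ± 0.10 with cGAMP and fell (log2 −0.39 ± 0.105 and −0.331 ± 0.105) at 20 and 50 μM. These falls were kept as calls in 20 and 18 of 22 alternatives.

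**Figure D5:**
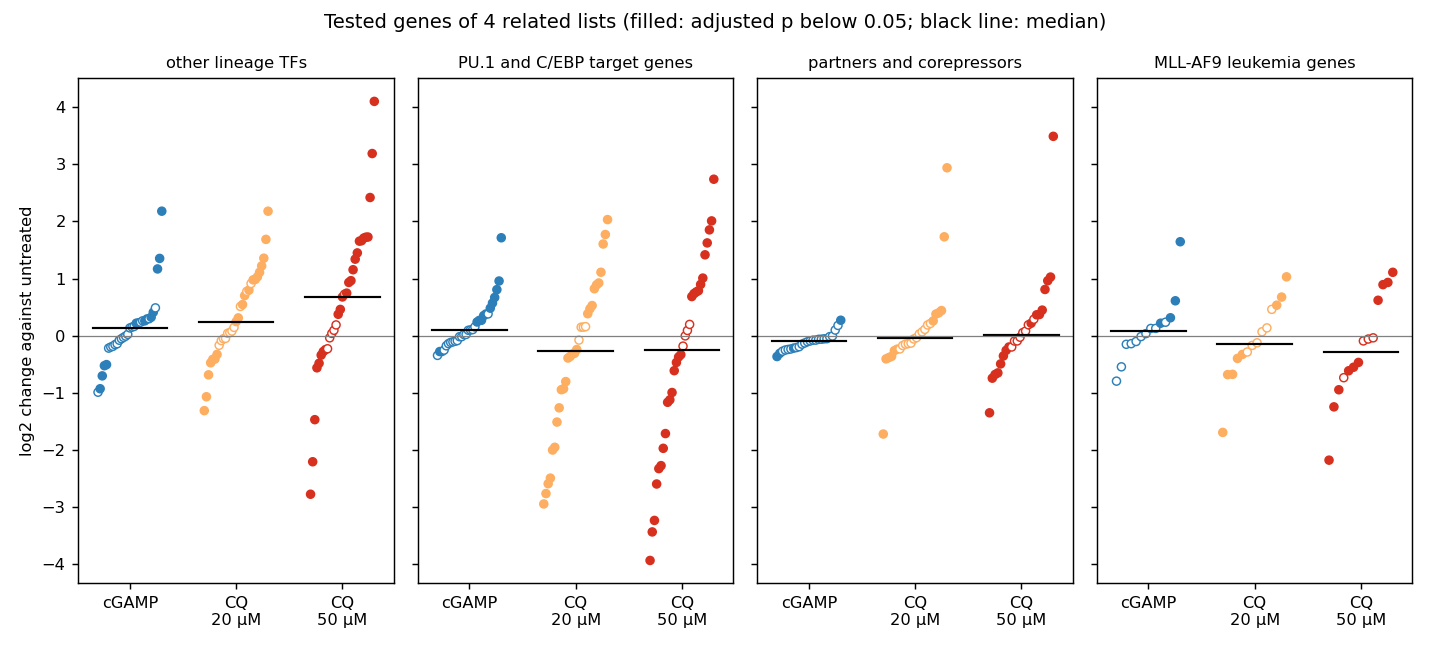
Log2 change against untreated cells (y axis) of each tested gene of 4 lists (panels) with cGAMP, 20 μM and 50 μM chlorquinaldol (CQ, x axis); filled points have an edgeR adjusted p below 0.05 and the black line is the median. Other lineage factors have medians of 0.14, 0.25 and 0.68, and the PU.1 and C/EBP targets spread to both sides at 50 μM with a median of −0.26.

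Among 24 partners and corepressors of the 9 factors, 1 rose and 3 fell with cGAMP, 6 rose and 6 fell at 20 μM, and 8 rose and 8 fell at 50 μM (median log2 −0.10, −0.05 and 0.01). At the 2 doses these counts are near the shares of all genes called (55.1% and 66.9%, and 23.3% with cGAMP). TRIB2, a pseudokinase that directs C/EBPα to degradation, rose from 3.7 CPM to 28.3 at 20 μM (log2 2.94 ± 0.20, edgeR adjusted p = 3.45e-09) and 41.5 at 50 μM (3.49 ± 0.20, edgeR adjusted p = 9.29e-11). MYBL1, a relative of MYB, rose by 1.73 ± 0.11 and 1.03 ± 0.11, and MYBBP1A, which encodes a MYB-binding protein, fell (log2 −1.72 ± 0.17 and −1.35 ± 0.17). HDAC3, a corepressor deacetylase gene, rose by 0.44 ± 0.08 and 0.81 ± 0.08. HDAC1, a partner of GFI1, fell (log2 −0.235 ± 0.089 and −0.74 ± 0.09), and so did the menin gene MEN1 (−0.405 ± 0.093 and −0.68 ± 0.10). The HDAC1 call at 20 μM was kept in 9 of 22 alternatives, and that of MEN1 in all 22.

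In a list of 18 MLL-AF9 leukemia genes 14 were tested. With cGAMP 4 rose and 0 fell, at 20 μM 3 rose and 5 fell, and at 50 μM 4 rose and 6 fell (median log2 0.08, −0.15 and −0.28). Here too the counts at the 2 doses are near the shares of all genes called, 55.1% and 66.9%, and with cGAMP the share was 23.3%. BCL2, the survival gene, fell (log2 −1.69 ± 0.12 and −2.18 ± 0.13) at the 2 doses, and HOXA10 (−0.68 ± 0.08 and −1.24 ± 0.08). JMJD1C, a demethylase family gene, rose by 0.61 ± 0.09 with cGAMP and by 0.68 ± 0.09 and 0.89 ± 0.09 at the 2 doses. CPEB2 rose by 0.53 ± 0.09 and 1.11 ± 0.09 at the 2 doses. MEF2C and ZEB2 stand in this list and in that of lineage factors. The cGAMP calls of MEF2C (0.22), MAF (0.41), CTSG (−0.28), HDAC1 (−0.31), MEN1 (−0.36) and CPEB2 (0.31), the log2 changes standing in parentheses, each ended when some single library was left out.

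The genes whose log2 CPM, centred on the mean over 12 libraries, lay nearest to each member were named by root mean square (RMS) difference among about 11049 genes. For MYB these were DZANK1 (RMS 0.131), the carbonic anhydrase gene CA2 (0.229) and ONECUT2 (0.246), and for GFI1 they were CACNA1E (0.09), SLC25A10 (0.137) and RASGRP2 (0.14). At 50 μM DZANK1 fell (log2 −3.36 ± 0.16) and CACNA1E (−2.81 ± 0.11). Nearest to CEBPA were MTA2 (0.094), RNF26 (0.099) and TRABD (0.1), and among those nearest to CEBPD were NOP10 (0.101) and DUSP3 (0.106). KLF4 was followed most closely by FRRS1 (0.146), ZBTB21 (0.159) and CARD19 (0.161). CEBPE lay nearest to MXD4 (0.216), IL16 (0.22) and PPOX (0.254), and RUNX1 to SETDB1 (0.046), RNF4 (0.049) and GPATCH8 (0.05). SPI1 and CEBPB were called in fewer than 2 comparisons with untreated cells and were not searched.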

How the data were processed

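The deposited tables hold RSEM estimated counts and FPKM for 12 THP-1 libraries, made by the authors against GRCh38 per the submitters' processing notes, which also name DESeq2 1.26.0. Per the labels, oligo(dT)-selected RNA was sequenced on the BGI DNBSEQ platform. Strand, RSEM version and annotation are not given in the sources used here. Of the estimated counts above 0, 42.307% were not whole and were rounded. The 326 entries without a gene ID (0.22% of counts) were left out. Positions come from GENCODE 29.

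A single quasi-likelihood model of the 12 libraries was fitted in edgeR 4.0.16 (R 4.3.3) after filterByExpr at a minimum count of 10 and TMM scaling, and was tested on simulated data. Changes in edgeR and DESeq2 are relative to the bulk of genes. The limma fits on FPKM had no such scaling between libraries. At 50 μM against untreated cells the all-gene median was −0.034 in edgeR. With the FPKM filter it was −0.143 in limma on log2(FPKM + 1) and −0.173 on log2(FPKM + 0.1). SE is the log2 change over the square root of F.

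The 9 genes and all lists were chosen with earlier results of these data known. Genes were named by rule: all 9, the 3 smallest p per list and comparison with untreated cells, and, for genes called in at least 2 of those comparisons, the 3 nearest patterns (mean of at least 5 CPM). Some genes this rule names are not reported here. Neighbouring genes and the length measure were added after values were seen.

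Alternatives were a fit of only the 2 groups, a replicate block, DESeq2 1.42.0, upper-quartile and RLE factors, a filter of 5 CPM in 3 libraries or none, adjusted p below 0.01, limma 3.58.1 on log2(FPKM + 1 or + 0.1) with a filter of 1 FPKM, no FPKM filter, and each library left out in turn.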

Additional observations from a re-analysis of the deposited data

How the results depend on the processing

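The log2 changes of MYB, GFI1, CEBPA, KLF4 and CEBPD at both chlorquinaldol doses, and of CEBPB at 50 μM, kept their direction and call in all 22 alternatives. The counts of called members outside cGAMP against untreated cells stayed within 1.5 times. With cGAMP against untreated cells, members called numbered 3 in limma on FPKM with either pseudocount, 2 without the FPKM filter, 2 at adjusted p below 0.01, and 3 to 4 with 1 library left out, lowest without any 1 cGAMP library or untreated replicate 2. All genes called in that comparison numbered 2538 in limma on log2(FPKM + 0.1), 2038 without the FPKM filter and 2203 at adjusted p below 0.01, against 3875. The CEBPB share of the C/EBP sum was 7.73%, 8.61%, 13.9% and 23.1% (untreated, cGAMP, 20 μM, 50 μM) from summed counts and 10.3%, 11.1%, 18.4% and 30.6% without CEBPG.

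Every change that reversed had an edgeR adjusted p above the threshold. RUNX1 at 50 μM against untreated cells was 0.22, 0.216 and 0.216 in the 3 limma fits on FPKM. With cGAMP against untreated cells SPI1 was 0.009 with DESeq2 and RLE factors, 0.034 without a filter, 0.035 with only the 2 groups, and −0.045 to 0.051 with 1 library left out. CEBPB was −0.198 to 0.014 with 1 library left out. CEBPD was −0.026, −0.025 and −0.025 in limma on FPKM, −0.011 with upper-quartile factors and −0.054 to 0.12 with 1 library left out. MYB was −0.025, −0.024 and −0.024 in limma on FPKM and −0.012 to 0.122 with 1 library left out. Against cGAMP, RUNX1 at 20 μM was 0.007 with at least 5 CPM, 0.041, 0.04 and 0.04 in limma on FPKM, 0.046 with upper-quartile factors and −0.058 to 0.015 with 1 library left out. CEBPE at 50 μM was −0.093 to 0.509 with 1 library left out, lowest without cGAMP replicate 1 and highest without replicate 2. The causes were not tested. The RUNX1 lengths reported above are CPM over FPKM, so they differ wherever these 2 scales differ and test no cause.

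Lower calls between the doses made up 49.9% of calls, and 63.2% to 68.9% in limma on FPKM, where the median of all genes was as low as −0.127. With cGAMP the lower share was 50.4%, 59.8% with upper-quartile factors, 37.5% without a filter and 39.5% at adjusted p below 0.01. It was as low as 31.1% with 1 library left out, without cGAMP replicate 2 (858 genes lower, against 1954). The share also fell without a library of another group, to 36.5% without 20 μM replicate 2 and 36.7% without 50 μM replicate 2. Replicate numbers did not pair the libraries: 0 of 18 same-number pairs correlated above 0.1 (r from −0.113 to 0.067), and 2 of 12 libraries correlated best with their own number. With the replicate block 4, 6, 8, 7, 6 and 7 members were called in cGAMP, 20 μM and 50 μM against untreated cells, 50 μM against 20 μM, and 20 μM and 50 μM against cGAMP. All genes called with the block numbered 3619, 8964, 10978, 6095, 9084 and 10948. RUNX1 with cGAMP was the call lost (adjusted p = 0.06). Depth limits CEBPE, with 15 to 59 counts a library, BATF3, and CEBPB-AS1 in untreated and cGAMP libraries.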
